A study of Mus musculus with 3 samples.

Results

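Of 1996 cochlear cells kept from 3 single-cell libraries, 73 carried C1q transcripts at the level chosen here and no transcript of 3 neutrophil lineage genes. A cell was kept when it had at least 200 detected genes and at most 20% mitochondrial UMIs (unique molecular identifiers, 1 per captured RNA molecule). The macrophages were chosen by their measured C1q content: a cell counted when C1qa, C1qb and C1qc together made up at least 300 CPM (UMIs per 1000000 UMIs of that cell) and Mpo, Camp and Ltf were all at 0 UMIs. The cells came from whole cochlear explants of 4- to 6-week-old mice carrying rtTA, tet-on-Myc and tet-on-NICD, which express Myc and the Notch intracellular domain when doxycycline (Dox) is present. Dox libraries 1 and 2 each pooled 4 cultures kept for 4 days in 2 µg/ml Dox, and the single control library pooled 4 cultures given sterile water. All 3 libraries carry the transgenes, so that the action of Dox itself and that of the transgenes cannot be told apart. The promoter that drives rtTA, and so the cells in which it acts, is not stated in these sources.

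C1qa, C1qb and C1qc encode the 3 chains of C1q, the recognition molecule of the classical complement pathway, which tissue macrophages make in quantity. Cochlear macrophages live in the lateral wall, around the auditory nerve and beneath the sensory epithelium, where they take up debris and present antigen after damage. MHC class II molecules carry peptides to helper T cells, and chemokines recruit further leukocytes.

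The C1q macrophages numbered 44 of 636 kept cells in Dox library 1 (6.92%, exact Clopper-Pearson 95% interval 5.07 to 9.18%), 14 of 997 in Dox library 2 (1.40%, 0.770 to 2.34%) and 15 of 363 in the control library (4.13%, 2.33 to 6.72%). The control share lay between those of the Dox libraries, whose intervals did not overlap, so the share did not separate Dox from control. The intervals cover counting error only. Depth was unequal: the macrophages held 567801, 409626 and 77335 UMIs in Dox library 1, Dox library 2 and the control, with medians of 5136.5, 23109.5 and 1899 UMIs per cell. The 3 deepest macrophages held 25.7% and 58.4% of these UMIs in Dox libraries 1 and 2, and 55.7% in the control. Malat1, a nuclear RNA, was at 0 UMIs in 13, 2 and 7 of the macrophages of Dox library 1, Dox library 2 and the control. The libraries shared 125 barcodes, and in all 125 every other copy held under 5% of the UMIs of the deepest copy. Of the macrophages, 2 of Dox library 1 (877 and 1207 UMIs) had such a barcode. In the comparison of Dox with control given further on, 41 genes rose and 38 fell without them.

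Cells chosen for C1q also carried the other transcripts of macrophages. Of 7 markers outside the rule (Lyz2, Tyrobp, Fcer1g, Csf1r, Ctss, Laptm5 and Cd68), at least 3 were detected in 38 of 44 and 12 of 14 cells of the Dox libraries and in 13 of 15 control cells. None was detected in 4, 1 and 1 cells, and 6, 2 and 3 cells entered on only 1 or 2 C1q UMIs. The macrophage closest to the limit had 366 CPM from 1 C1q UMI and none of the 7 markers, while the nearest cell below it had 299 CPM, also from 1 UMI. A deeper cell near the limit, in Dox library 2, had 616 CPM from 17 C1q UMIs and all 7 markers. The rule left out 3 cells of Dox library 1 for a neutrophil lineage UMI, among them 1 with 468 C1q UMIs and a single Mpo UMI. In Epcam-expressing epithelial cells, which should lack C1q, C1qa was seen in 4 of 305, 2 of 635 and 0 of 105 cells of Dox library 1, Dox library 2 and the control (1.31%, 0.315% and at most 2.86% for a count of 0), at median depths of 28871, 35481 and 1628 UMIs. Of these epithelial cells, 2 in each Dox library were themselves C1q macrophages by the rule.

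**Figure D1:**
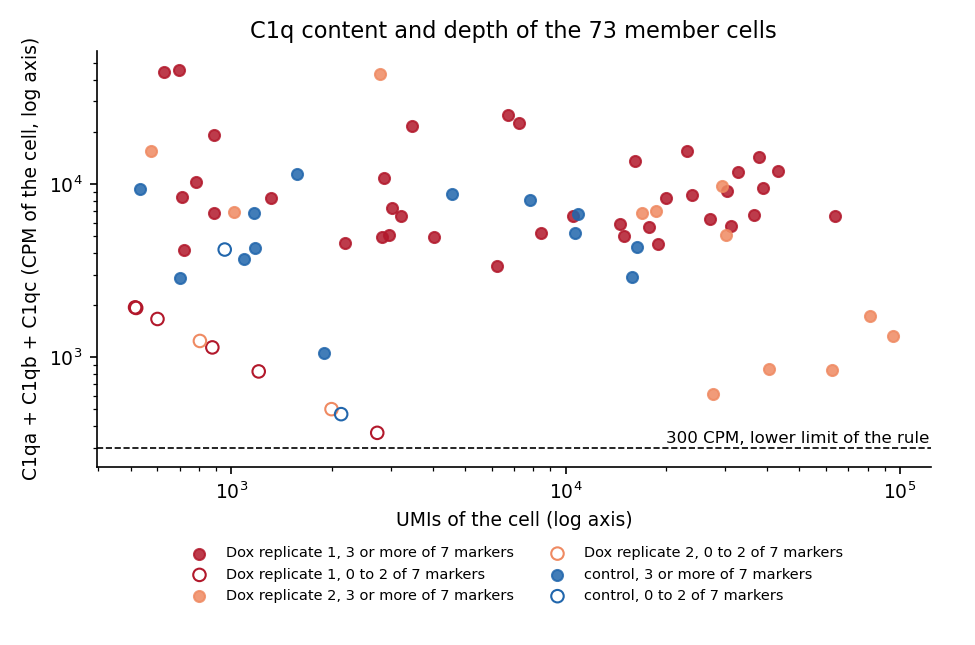
C1q content of each C1q macrophage (CPM of the cell) against its UMIs, both on log axes. Filled points carry 3 or more of the 7 markers, open points 0 to 2, and the dashed line is the 300 CPM limit. Open points sit at low depth, the deepest at 2731 UMIs, and the cell with 616 CPM from 17 C1q UMIs is filled.

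Against the other kept cells of the same libraries, summed per library, 1005 of 11398 genes outside the rule were higher in C1q macrophages (8.82%) and 1057 were lower (9.27%; edgeR quasi-likelihood test, Benjamini-Hochberg adjusted p at or below 0.05, library as block). All 24 tested genes of the macrophage identity list were higher, with a median log2 ratio of 6.36 against -0.26 over all genes. So were 15 of 15 Fc receptor and ITAM signalling genes, 7 of 7 MHC class II genes, 23 of 30 lysosomal genes and 13 of 16 chemokines. Of the epithelial list, 13 of 14 genes were lower. Leaving out either Dox library left 0 higher genes and 0 or 1 lower genes, with 1 control library and 1 Dox library in the fit.

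The highest ratios over the other cells belonged to Pf4 (platelet factor 4, CXCL4), the mannose receptor Mrc1 and Dnase1l3, a nuclease that degrades DNA in microparticles. Pf4 stood at 1048, 234 and 8366 CPM in the macrophages of Dox library 1, Dox library 2 and the control, against 0.824, 0.152 and 5.93 CPM in the other cells. Mrc1 stood at 169, 68.4 and 375 CPM, against 0.257, 0.0609 and 0.191 CPM in the other cells. Both were concentrated in the macrophages of every library, and the control macrophages had the highest value of each. The integrin Itgax (CD11c), Gbp2b, H2-Aa, Il1a, H2-Ab1, Asb2, Ccl24, Aif1 and Ly86 were, beside the C1q genes, the others among the 15 highest ratios. Dnase1l3, Itgax, Gbp2b, Asb2 and Ccl24 were at 0 CPM in the control macrophages. All of these except Ccl24 were not among the genes tested against the other cells. Gbp2b stood at 252 CPM in Dox library 1 and 4.88 CPM in Dox library 2. Of the perivascular and tissue-resident list, 7 of 10 tested genes were higher in the macrophages than in the other cells and 0 were lower, while Cd163, Cd209f and Lyve1 had at most 1 UMI in the macrophages of any library.

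Dox was then set against control on the macrophage UMIs summed per library, given below as CPM after TMM scaling, where 1 UMI is worth 1.88 CPM in Dox library 1, 2.65 CPM in Dox library 2 and 12.6 CPM in the control. Of 6510 genes tested, 81 passed an adjusted p of 0.05 (1.24%). Of these, 42 rose with Dox (0.645%) and 39 fell (0.599%), and 604 genes had an unadjusted p at or below 0.05. Scaled to total counts instead, 28 rose and 50 fell. The fit has 2 libraries against 1 with 1 residual degree of freedom, so the spread of the 1 control library is taken to be that of the Dox pair. The size of these lists depends on the member cells and the filter: with only cells holding at least 3 of the 7 markers, 0 genes rose and 3 fell, although the 80 of the 81 genes still tested all kept their direction and 75 had an unadjusted p at or below 0.05. Without a filter on low counts, or with the C1q limit at 1000 CPM, 0 genes were called in either direction. The genes most often called across the alternatives with a test were Cxcl3 (12 of 15), Cxcl13 (11 of 15) and Ahnak (10 of 15), which are the 3 that fell in the cells with at least 3 markers. The top control cell of each held 62.5%, 93.7% and 67.6% of its control UMIs.

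MHC class II transcripts had the highest UMI counts of the genes that rose with Dox. Cd74, the invariant chain that chaperones class II molecules, stood at 4332 and 1667 CPM in the Dox libraries (2306 and 630 UMIs) and at 50.2 CPM in the control (4 UMIs; log2 fold change 5.89 ± 1.13 SE, adjusted p = 0.00013). H2-Ab1, the class II A beta chain, stood at 2234 and 685 CPM with Dox and at 37.7 CPM in the control (3 UMIs), so that the Dox libraries together had 42.3 times the control level (counting interval 14.4 to 205). H2-Aa, the partner alpha chain, stood at 1680 and 603 CPM with Dox and at 12.6 CPM in the control (1 UMI), so that the Dox libraries together had 98.2 times the control level (counting interval 17.6 to 3883). Both Dox libraries were far above the control for each of these genes, and Dox library 1 was the higher of the pair. Each of the 3 was called in 9 of 16 alternatives, DESeq2 among them, but not in the cells with at least 3 markers.

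Only these 3 of the 9 tested class II genes passed the test, against 0.645% risen over all genes tested. All 9 were above the control in both Dox libraries, as were 2781 of the 6510 genes tested (42.7%). The list's median log2 fold change was 5.26, or 2.00 with genes at 0 control UMIs set at the bound given by 3 UMIs (0 where Dox is also under it), against 0.14 (0 with bounds) over all genes. H2-Eb1, the E beta chain, stood at 47.0 and 119 CPM with Dox and 0 in the control, and Ciita, the master coactivator of class II genes, at 78.9 and 13.2 CPM with Dox and 0 in the control (adjusted p = 0.0880 and 0.335). H2-DMa, a chain of the peptide-loading factor H2-DM, stood at 297 and 103 CPM with Dox and 50.2 CPM in the control (adjusted p = 0.398). The costimulatory ligand Cd86 stood at 111 and 82.0 CPM with Dox and 62.8 CPM in the control (adjusted p = 0.930). Summed over the list, the Dox macrophages held 85.1 and 31.3 UMIs per 10000 and the control macrophages 2.46, against 0.654, 0.198 and 0.314 in the other cells of Dox library 1, Dox library 2 and the control.

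Some class II promoters share a short sequence in RefSeq. The 250 bases before the start of H2-Aa (GRCm38.p6, chr17:34287824-34288073, minus strand) and of H2-Eb1 (chr17:34305617-34305866, plus strand) each hold the letters CTGATTGG, in capitals here, the core of the Y box of class II promoters. They are shown because H2-Aa had the largest fold among the class II genes that passed and H2-Eb1, close by on chromosome 17, was at 0 control UMIs. The promoters of Cd74 and H2-Ab1, which also passed, were not among those looked at.
H2-Aa: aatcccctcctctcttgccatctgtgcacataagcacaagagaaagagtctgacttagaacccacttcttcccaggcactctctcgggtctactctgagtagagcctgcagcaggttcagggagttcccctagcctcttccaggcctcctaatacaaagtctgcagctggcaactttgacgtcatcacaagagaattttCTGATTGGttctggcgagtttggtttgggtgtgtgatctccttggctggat
H2-Eb1: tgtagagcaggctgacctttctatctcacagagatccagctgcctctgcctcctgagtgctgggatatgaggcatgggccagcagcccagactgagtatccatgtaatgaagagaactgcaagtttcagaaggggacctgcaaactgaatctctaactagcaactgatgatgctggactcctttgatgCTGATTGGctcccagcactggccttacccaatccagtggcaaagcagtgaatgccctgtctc
The match begins 51 bases before the H2-Aa start and 62 bases before the H2-Eb1 start, on the strand of the gene. H2-Oa also holds it, while H2-DMa, H2-DMb1, H2-DMb2 and Cd80 do not hold these exact letters. The windows of H2-DMb1 and H2-DMb2 hold GTGATTGG, which differs only in the leading letter. Searched on both strands, CTGATTGG was in 3.83% of 32851 RefSeq promoters of this length, Cxcl9 and Cxcl10 among them. A match of letters describes the window and is not evidence of binding.

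Class II content varied widely from cell to cell. In macrophages with at least 1000 UMIs and at least 3 of the 7 markers (31 and 11 Dox cells, 11 control cells), the list held 0 to 241 UMIs per 10000 of the cell in Dox library 1, with a median of 58.8. In Dox library 2 it held 1.11 to 133 with a median of 10.9, and in the control 0 to 10.5 with a median of 1.28. Of the Dox macrophages, 28 of 31 and 6 of 11 lay above the highest control cell. The other 5 cells of Dox library 2 lay within the control range, as the plot of list content by cell shows. After thinning each cell to 1000 UMIs, 28 of 33 and 8 of 12 Dox macrophages and 2 of 12 control macrophages kept at least 1 class II UMI, so depth was equal in that comparison; 11, 2 and 3 shallower macrophages were left out.

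**Figure D2:**
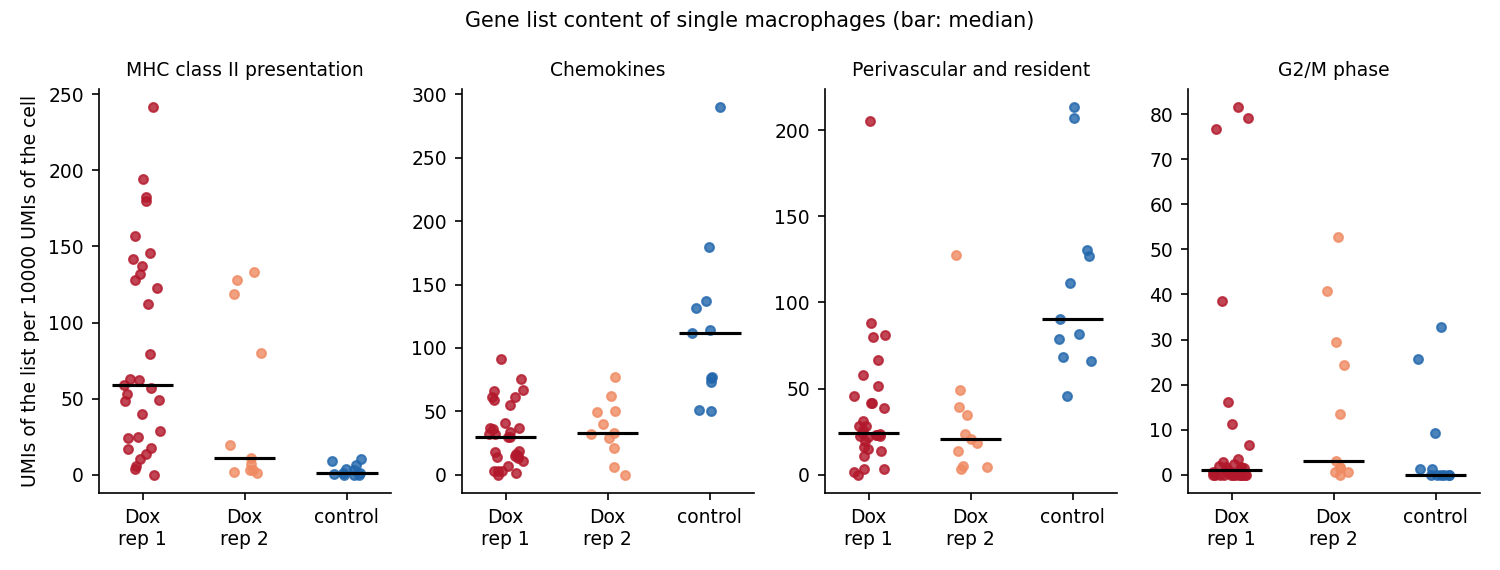
UMIs of 4 gene lists per 10000 UMIs of the cell, for macrophages with at least 1000 UMIs and at least 3 of 7 markers; each point is 1 cell and the bar is the median of the library. Class II medians are 58.8 and 10.9 in the Dox libraries and 1.28 in the control, chemokine medians 29.7 and 32.8 against 112, and resident-list medians 24.3 and 20.7 against 90.5.

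MHC class I genes, which serve presentation to cytotoxic T cells, did not pass the test: 0 of 12 were called, with a median log2 fold change of -0.06. H2-D1 stood at 1270 and 611 CPM with Dox and 2397 CPM in the control, and H2-K1 at 744 and 437 CPM with Dox and 1506 CPM in the control (adjusted p = 0.534 and 0.498). Per cell, 11 of 31 and 10 of 11 Dox macrophages lay below the lowest control cell for the list, and 1 of 31 and 0 of 11 lay above the highest.

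Chemokines were the list with the most calls, 9 of 15 tested genes, against 1.24% over all genes tested: 7 fell with Dox and 2 rose. The list's median log2 fold change was -1.91, and 13 of the 15 were below the control in both Dox libraries, as were 2304 of the 6510 genes tested (35.4%). Among neutrophil-attracting CXC chemokines, Cxcl3 stood at 7.52 and 0 CPM with Dox (4 and 0 UMIs) and at 1105 CPM in the control (88 UMIs; log2 fold change -7.89 ± 0.80 SE, adjusted p = 3.76e-19). It was seen in 2 and 0 Dox macrophages and in 9 of 15 control macrophages, with 62.5% of the control UMIs in 1 cell. Cxcl1 stood at 111 and 198 CPM with Dox and 715 CPM in the control (log2 fold change -2.21 ± 0.63 SE, adjusted p = 0.0421), with 52.6% of the control UMIs in 1 cell. Cxcl2, the most abundant of the 3, stood at 1394 and 1223 CPM with Dox and 4920 CPM in the control but did not pass (log2 fold change -1.91, adjusted p = 0.249). The 3 genes thus lay below the control in both Dox libraries, by very different amounts.

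Cxcl1, Cxcl2 and Cxcl3 lie in 1 gene cluster on chromosome 5, which also holds Pf4, and their promoters are shown for the longest run of letters that all 3 share, GGGAATTTCCC, which has the form of an NF-kB site (capitals; GRCm38.p6, plus strand; Cxcl1 chr5:90890995-90891244, Cxcl2 chr5:90903649-90903898, Cxcl3 chr5:90785851-90786100).
Cxcl1: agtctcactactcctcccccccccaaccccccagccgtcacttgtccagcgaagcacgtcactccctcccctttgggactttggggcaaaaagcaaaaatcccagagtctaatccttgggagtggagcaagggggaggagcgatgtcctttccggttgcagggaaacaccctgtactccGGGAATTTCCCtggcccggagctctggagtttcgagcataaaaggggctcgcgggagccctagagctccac
Cxcl2: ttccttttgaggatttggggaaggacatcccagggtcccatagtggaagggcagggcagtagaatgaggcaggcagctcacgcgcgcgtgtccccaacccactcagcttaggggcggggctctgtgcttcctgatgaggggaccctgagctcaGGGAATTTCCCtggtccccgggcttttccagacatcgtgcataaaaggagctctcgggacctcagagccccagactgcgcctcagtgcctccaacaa
Cxcl3: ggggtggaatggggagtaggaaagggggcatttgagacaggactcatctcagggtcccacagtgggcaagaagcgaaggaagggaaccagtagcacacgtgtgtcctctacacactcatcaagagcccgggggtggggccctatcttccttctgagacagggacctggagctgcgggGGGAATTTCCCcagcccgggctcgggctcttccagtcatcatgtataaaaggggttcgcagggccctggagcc
The run begins 71, 97 and 73 bases before the start of Cxcl1, Cxcl2 and Cxcl3. Searched on both strands, it was in 14 of 32851 RefSeq promoters (0.0426%), and no other chemokine promoter of the list in the table held it. Related genes of a cluster can share reads, and the deposited counts do not show whether these did.

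Of the CC chemokines, Ccl9 stood at 5.64 and 60.9 CPM with Dox and 527 CPM in the control (log2 fold change -4.05 ± 0.65 SE, adjusted p = 8.29e-07). Ccl5, a T cell and monocyte attractant, stood at 11.3 and 63.5 CPM with Dox and 414 CPM in the control (log2 fold change -3.51 ± 0.65 SE, adjusted p = 6.43e-05). Ccl2, the main ligand of the monocyte receptor CCR2, stood at 45.1 and 209 CPM with Dox and 753 CPM in the control, a log2 fold change of -2.58. Ccl6 and Cxcl14 fell by 2.55 and 2.18 on the log2 scale. For these genes the Dox libraries did not reach the control, and Dox library 1 was the lower of the pair. The top control cell held 66.7% of the control UMIs of Ccl5 and 51.7% of those of Ccl2. In Dox library 2 the top cell held 91.3% of the Ccl9 UMIs and 96.9% of the Ccl6 UMIs.

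Ccl24 (eotaxin-2; chr5:135569937-135573049, minus strand, GRCm38), an eosinophil attractant, and Cxcl10, an interferon-induced ligand of CXCR3, rose. Ccl24 stood at 1392 and 214 CPM with Dox (741 and 81 UMIs) and at 0 in the control, at least 24-fold higher when the control is set at 3 UMIs over the library (adjusted p = 4.01e-05). It was present in 23 of 44 macrophages of Dox library 1 and 6 of 14 of Dox library 2, where 90.1% of its UMIs came from 1 cell. Cxcl10 stood at 109 and 151 CPM with Dox and 0 in the control, at least 3.36-fold higher. It was present in 9 macrophages of Dox library 1 and 5 of Dox library 2, with 36.2% and 68.4% of its UMIs in the top cell. Cxcl13, a B cell attractant outside the list, gave the largest fall: 0 and 0 UMIs with Dox and 189 in the control (2372 CPM), at least 720-fold lower, but in only 2 control macrophages, 1 of which held 93.7% of the UMIs.

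**Figure D3:**
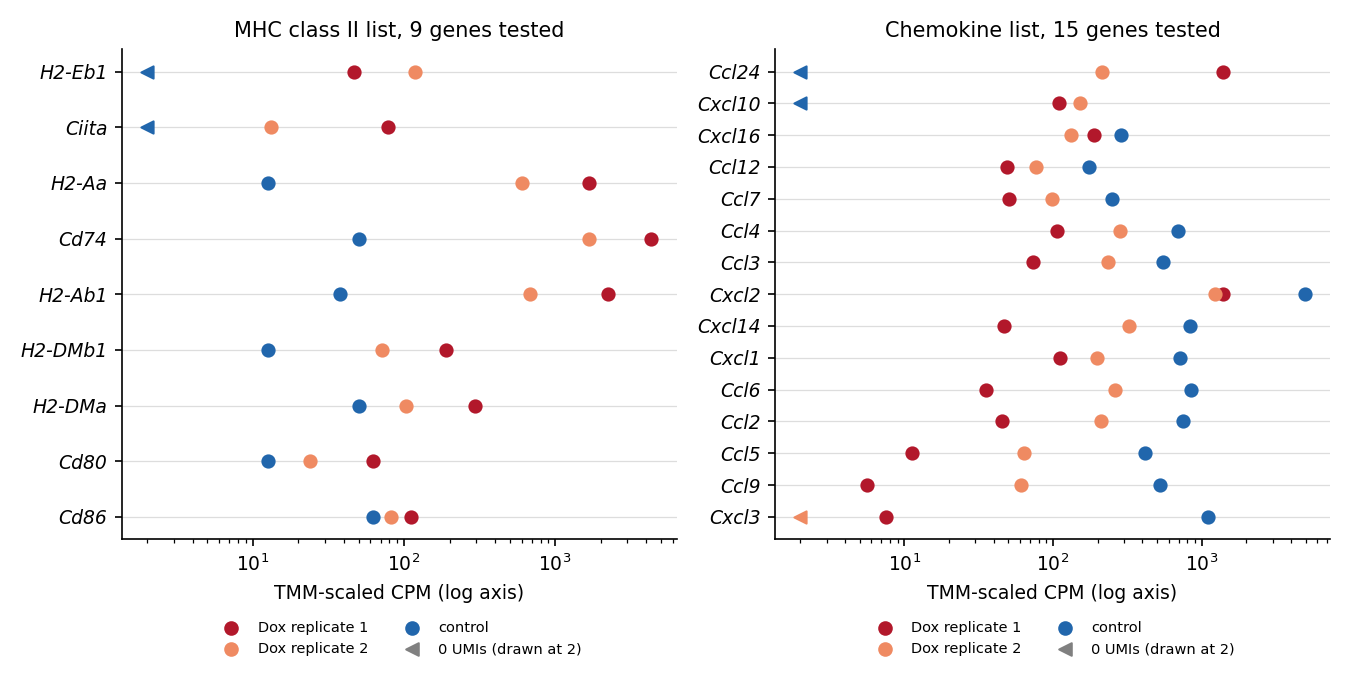
TMM-scaled CPM (log axis) of the tested MHC class II genes (left) and chemokines (right) in the macrophages of each library; triangles mark 0 UMIs and are drawn at 2. All 9 class II genes lie above the control in both Dox libraries, and 13 of 15 chemokines lie below it.

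Per cell, the chemokine list held medians of 29.7 and 32.8 UMIs per 10000 in the Dox libraries and 112 in the control, and 23 of 31 and 8 of 11 Dox macrophages lay below the lowest control cell. Thinned to 1000 UMIs, the means were 3.03 and 3.75 UMIs in Dox macrophages and 10.1 UMIs in control macrophages.

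Of the inflammatory cytokine and inflammasome list, 1 of 15 tested genes fell and none rose, against 0.599% fallen over all genes tested. Tnf stood at 22.5 and 29.1 CPM with Dox and 188 CPM in the control (log2 fold change -2.86 ± 0.75 SE, adjusted p = 0.0199), from 15 control UMIs in 2 cells. Il1b stood at 1041 and 418 CPM with Dox and 1280 CPM in the control (adjusted p = 0.782). Saa3, an acute-phase apolipoprotein, fell by 3.53 on the log2 scale, with 333 and 895 CPM with Dox and 7067 CPM in the control, and 82.4% of its control UMIs lay in 1 cell. Arg1, the arginase of alternative activation, fell by 2.29, with 239 and 582 CPM with Dox and 2008 CPM in the control. Socs3 and Dusp1, feedback inhibitors induced early after stimulation, fell by 2.53 and 2.32. The interferon-stimulated list had 0 of 19 genes called and a median log2 fold change of -0.55.

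Pf4 and F13a1, genes of resident and perivascular macrophages, were lower with Dox. Pf4 (chr5:90772435-90773383, plus strand, GRCm38) stood at 1118 and 254 CPM with Dox and at 8121 CPM in the control (log2 fold change -3.56 ± 0.74 SE, adjusted p = 0.00074). F13a1, the A subunit of coagulation factor XIII, stood at 182 and 180 CPM with Dox and at 1531 CPM in the control (log2 fold change -3.08 ± 0.64 SE, adjusted p = 0.00074). Pf4 was in 22, 9 and 13 macrophages and F13a1 in 4, 4 and 9 of Dox library 1, Dox library 2 and the control, so both were widespread in the control cells. These were 2 of the 9 tested genes of the list, against 0.599% fallen over all genes tested. The list had a median of -1.12, or 1.17 without the filter on low counts. Of its 9 tested genes, 5 lay below the control in both Dox libraries and 3 above it in both. Over all genes tested these shares were 35.4% and 42.7%. Selenop, a selenium transport protein, stood at 1806 and 516 CPM with Dox and 188 CPM in the control without passing (adjusted p = 0.0961), opposite to Pf4 and F13a1. Per cell, 24 of 31 and 9 of 11 Dox macrophages lay below the lowest control cell for the list as a whole, of whose 893 control UMIs Pf4 made up 647, with 50.4% of those in 1 cell.

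Of the monocyte list, 2 of 9 tested genes fell and 0 rose, against 0.599% fallen over all genes tested. The list's median log2 fold change was -0.15, with 3 genes above the control in both Dox libraries and 3 below it in both. Fn1, fibronectin, stood at 218 and 320 CPM with Dox and 2874 CPM in the control (log2 fold change -3.42 ± 0.68 SE, adjusted p = 0.000276), with 69.0% of the control UMIs in 1 cell. Ccr2, the monocyte chemokine receptor, stood at 30.1 and 45.0 CPM with Dox and 264 CPM in the control, all 21 control UMIs in a single cell. Without the 3 deepest macrophages of each library Ccr2 had 0 control UMIs and its log2 fold change was 6.67 (adjusted p = 0.293). Ahnak, a giant scaffold protein at the membrane, fell by 4.92, with 5.64 and 58.2 CPM with Dox and 929 CPM in the control. It was seen in 7 control macrophages, 1 of which held 67.6% of the control UMIs.

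Adamdec1, Dnase1l3, Itgax and Lag3 were at 0 UMIs in the control and were found in many cells of Dox library 1. Adamdec1, a secreted metalloprotease of mononuclear phagocytes, stood at 644 and 212 CPM with Dox, at least 12.3-fold higher, in 19 and 3 macrophages. Dnase1l3 stood at 475 and 167 CPM with Dox, at least 9.22-fold higher, in 19 and 4 macrophages. Itgax stood at 289 and 82.0 CPM with Dox, at least 5.40-fold higher, in 23 and 6 macrophages. Lag3, an inhibitory receptor that binds MHC class II, stood at 244 and 66.2 CPM with Dox, at least 4.52-fold higher, in 17 and 6 macrophages. The iron exporter Slc40a1 stood at 160 and 42.3 CPM with Dox, at least 2.95-fold higher, and the growth factor Hbegf at 139 and 103 CPM, at least 3.30-fold higher. In each of these 6 genes Dox library 1 was the higher of the pair.

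**Figure D4:**
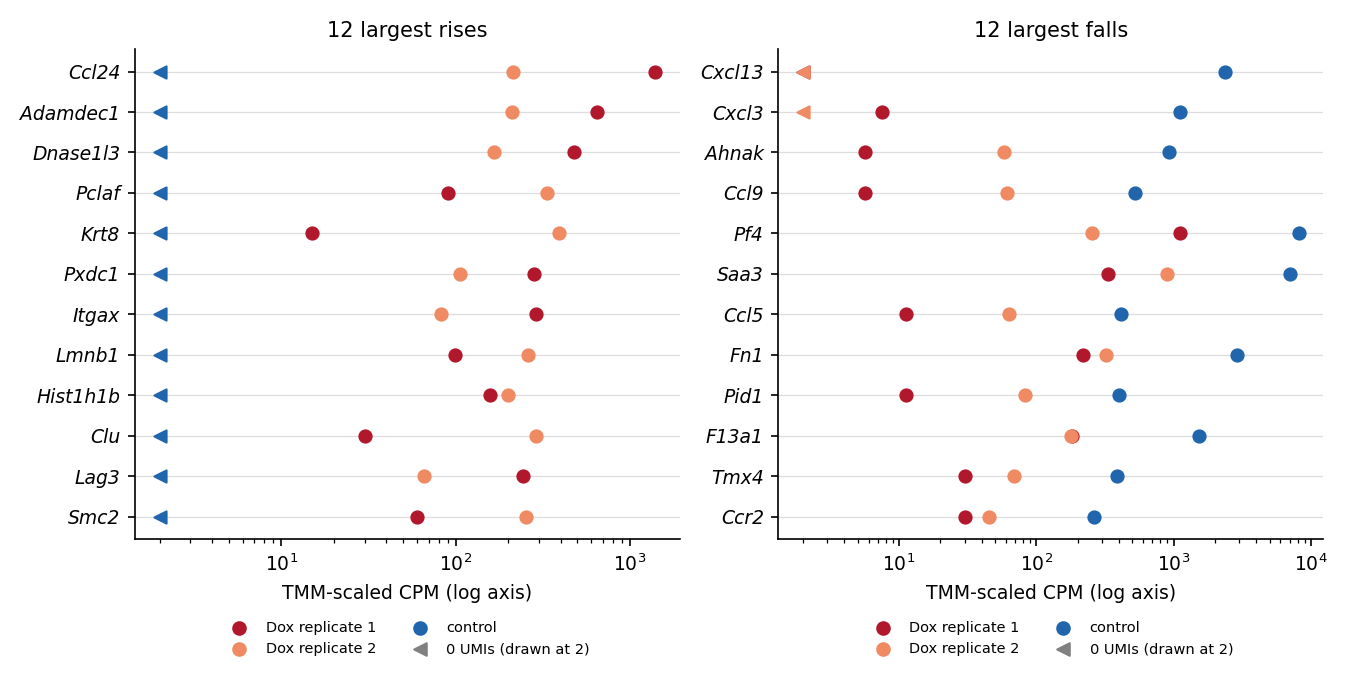
TMM-scaled CPM (log axis) of the 12 largest rises (left) and the 12 largest falls (right) by fitted log2 fold change, in the macrophages of each library. Triangles mark 0 UMIs and are drawn at 2. The fit gives genes at 0 control UMIs the largest values. H2-Aa, at 98.2 times the control level from 1 control UMI, is therefore not among the rises, while Clu, at least 3.65-fold higher, is. All 12 rises are at 0 UMIs in the control, and Cxcl13 is at 0 UMIs in both Dox libraries. Among the rises, Clu and Krt8 had 96.3% and 88.5% of their UMIs of Dox library 2 in 1 cell. In the other kept cells Clu stood at 2266 and 1800 CPM with Dox and 4050 CPM in the control, and Krt8 at 846, 1098 and 392 CPM. The part of free RNA or doublets in these 2 rises was not tested.

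Proliferation genes were detected in macrophages of each library. Of the G2/M list, 4 of 25 genes rose (Top2a, Cenpf, Tpx2 and Prc1), against 0.645% over all genes tested, and 14 were at 0 UMIs in the control. The list's median log2 fold change was 6.14, or 0.84 with those genes at their bound. For each of the 4 that rose, the top cell held 68.4 to 87.2% of the UMIs of Dox library 1. In Dox library 2 it held 50.7 to 67.3%. Top2a, the topoisomerase of dividing cells, stood at 143 and 273 CPM with Dox and 12.6 CPM in the control (1 UMI), so that the Dox libraries together had 15.7 times the control level (counting interval 2.78 to 622). Pclaf, a PCNA-binding replication factor, stood at 90.2 and 333 CPM with Dox and 0 in the control, at least 5.08-fold higher. Of the S phase list, 0 of 23 genes passed (median 5.83, or 0.03 at bounds). An Mki67 or Top2a UMI was present in 14 of 31 and 7 of 11 Dox macrophages and in 4 of 11 control macrophages, and the G2/M content per cell reached 81.5 and 52.7 UMIs per 10000 with Dox and 32.8 in the control. Thinned to 1000 UMIs, cells with a G2/M UMI were 6 of 33 and 5 of 12 with Dox and 5 of 12 in the control, so at equal depth the shares with Dox were not above the control.

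Neither Myc nor Notch1, the genes of the transgenes, passed the test in macrophages. Myc stood at 15.0 and 39.7 CPM with Dox and 62.8 CPM in the control (adjusted p = 0.798), and Notch1 at 141 and 130 CPM with Dox and 62.8 CPM in the control (adjusted p = 0.755). In the other kept cells, unscaled, Notch1 stood at 439.5 and 330 CPM with Dox and 43.2 CPM in the control. Whether the transgenic transcripts end in the counted sequence is not stated in the labels, so these values bear on the transgenes to an unknown degree. Hes1, a direct Notch target, stood at 75.2 and 169 CPM with Dox and 0 in the control, at least 3.03-fold higher, with 84.4% of the UMIs of Dox library 2 in 1 cell, and was the only gene called among 10 of the Notch-responsive list. Of the MYC-responsive growth list, 1 of 30 genes rose, the mitochondrial protein gene C1qbp. Over all genes tested, 0.645% rose. In the MYC-responsive list, 23 of 30 were above the control in both Dox libraries, against 42.7% of all genes tested (median 1.64, or 1.23 at bounds). Ribosomal protein genes were above the control in both Dox libraries in 28 of 28 cases, against the same 42.7%, with a median of 1.35, and 0 passed.

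**Figure D5:**
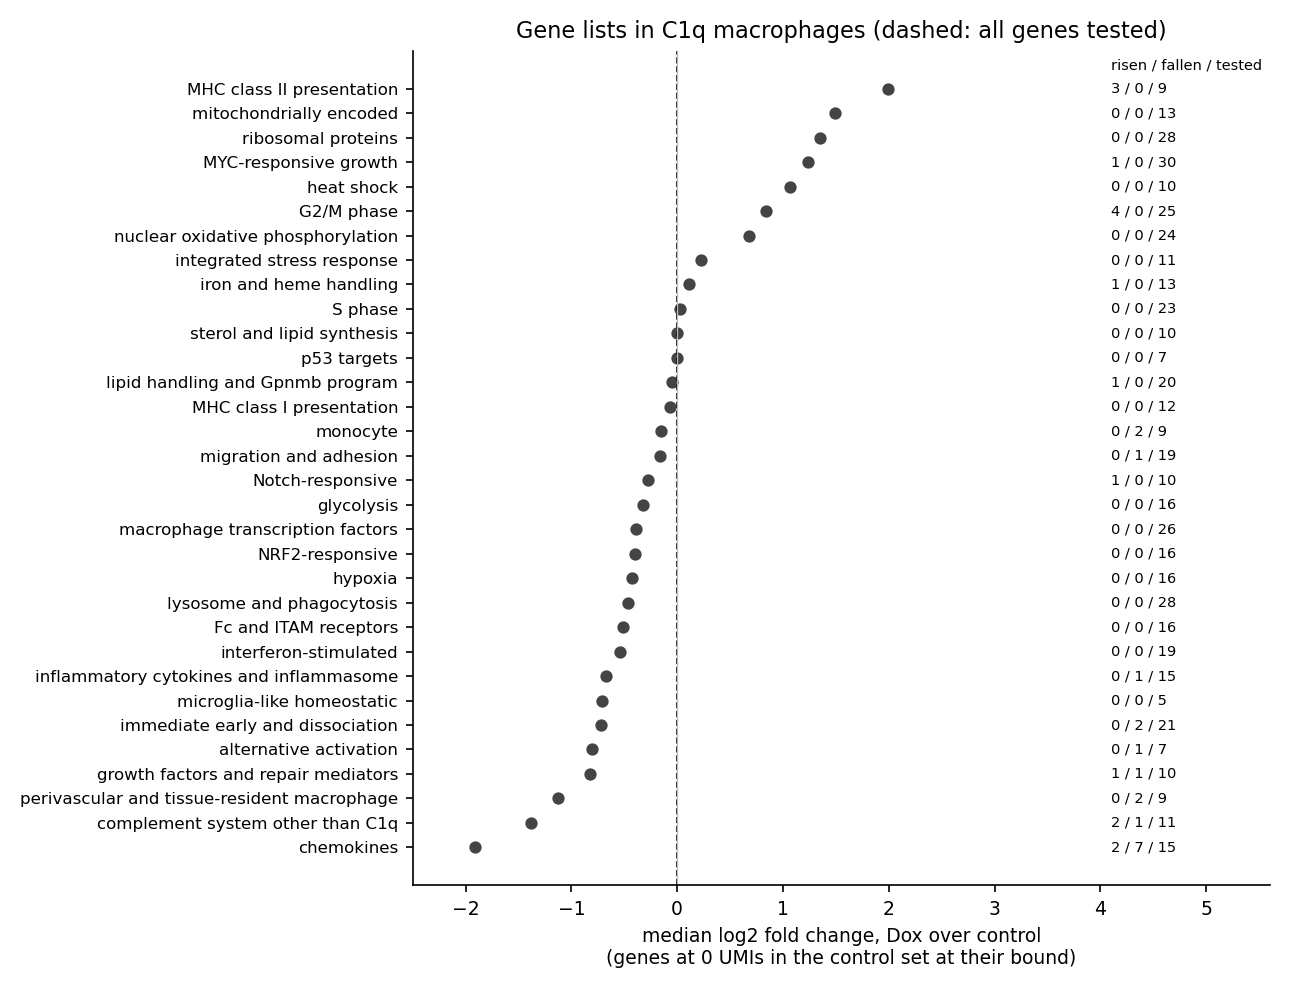
Median log2 fold change of each macrophage and program list with at least 5 tested genes, Dox over control, with genes at 0 control UMIs at their bound; the counts at the right give genes risen, fallen and tested. Class II presentation has a median of 2.00 and chemokines -1.91, and the dashed line is the median of all genes, 0.

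No gene of the core macrophage program passed the test. Of the identity list, 0 of 24 genes were called and the median log2 fold change was -0.14. Lyz2, lysozyme M, stood at 11806 and 5494 CPM with Dox and 6753 CPM in the control, and Tyrobp, the ITAM adaptor DAP12, at 2138 and 1426 CPM with Dox and 1556 CPM in the control, so that for both the control lay between the Dox libraries. Fc and ITAM receptors (0 of 16), lysosome and phagocytosis (0 of 28) and macrophage transcription factors (0 of 26) gave no call, with medians of -0.51, -0.47 and -0.39. The C1q genes, which chose the cells, are given without a test. C1qa stood at 3493 and 1228 CPM with Dox and 2309 CPM in the control, C1qb at 3143 and 971 CPM with Dox and 1280 CPM in the control, and C1qc at 3115 and 963 CPM with Dox and 1406 CPM in the control.

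Of the lists of other cell types, only the epithelial and neutrophil lineage lists held genes called with Dox in these sums. The mast cell, fibroblast, pericyte and melanocyte lists had no gene tested. The epithelial list held 26 and 438 UMIs in 13 and 3 Dox macrophages (0.458 and 10.7 per 10000), and all 16 of its genes were at 0 UMIs in the control macrophages. Epcam and Krt8 passed the test as rises, and 95.8% of the Epcam UMIs of Dox library 2 lay in 1 cell of 95133 UMIs that also held all 7 macrophage markers. Among neutrophil lineage genes outside the rule, Lcn2 rose, from 2 control UMIs. Its top cell held 92.5% of its UMIs in Dox library 1 and 90.5% in Dox library 2. In the other kept cells Lcn2 stood at 2137 and 3957 CPM with Dox and 4382 CPM in the control. S100a8, S100a9, Ngp, Elane or Prtn3 was seen in 12 and 4 Dox macrophages and in 0 control macrophages. The whole neutrophil list held 9.67 and 10.5 UMIs per 10000 with Dox and 10.1 in the control. The part of free RNA or of doublets in the calls was not tested. Without the cells at 10 or more epithelial UMIs per 10000, 17 genes rose and 22 fell, and without cells holding any of those 5 neutrophil genes 0 rose and 1 fell.

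Whether the response to Dox differed between the macrophages and the other kept cells was tested as an interaction, with 0 of 13201 genes called by edgeR (0%), 864 at an unadjusted p at or below 0.05, and 37 called by DESeq2. Selenop, Lyz2 and Cd74 had the smallest unadjusted p among the named genes by edgeR. Their log2 change was higher by 5.83, 5.38 and 6.04 in macrophages than in the other cells, with an adjusted p of 0.552 each. All of them were among the 37 called by DESeq2. In the scaling of this fit, Lyz2 in the other cells stood at 36.5 and 21.1 CPM with Dox and 853 CPM in the control. In the macrophages it stood at 12082.5 and 5498 CPM with Dox and 5993 CPM in the control, so its difference lay largely in the other cells. Because the calls depended on the tool, no response is given here as particular to the macrophages.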

How the data were processed

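The authors deposited 1 filtered matrix of UMI counts per library (gene by cell barcode), made with the 10x Genomics 3' chemistry v3.1 from trypsin-dissociated sensory epithelium, per the labels' protocols. Per the submitters' processing notes, Cell Ranger 5.0, STAR and Seurat 3.2.2 were used on mm10 (GRCm38), while the matrix headers name software version 3.1.0. The sources used here do not say if intronic reads were counted.

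The counts were not rescaled before testing. The C1q macrophages and gene lists were chosen with earlier results of these data known. UMIs were summed per library over the macrophages, since cells are not replicates, and tested with edgeR 4.0.16 in R 4.3.3 (TMM scaling, filterByExpr, quasi-likelihood fit, Benjamini-Hochberg adjustment over all tested genes, threshold 0.05). Adjusted p values are from that test unless DESeq2 1.42.0 is named. edgeR's prior degrees of freedom were infinite in the Dox test, so that all genes shared 1 trend of spread. The libraries held 20309102 and 33385927 UMIs with Dox and 5436731 in the control. P values of the Dox test measure the spread between the 2 Dox libraries, which may be technical. Those of the macrophages against the other cells measure how this difference varied over all libraries, the control included.

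Named genes included the 12 largest rises and falls by fitted log2 fold change among called genes of 50 UMIs or more. For these, the Dox libraries lay both above or both below the control. Up to 4 genes per list by p, Myc and Notch1, and the markers were also named. So were the 15 highest ratios over other cells with at least 100 UMIs. Others, such as Il1b, Ciita and Cxcl2, were chosen after their values were seen. Folds against 0 UMIs use a floor of 3 UMIs over the group. Counting intervals are exact at 95%. No doublet caller was run. Scripts were tested on simulated data. The alternatives changed the scaling, the low-count filter, the tool, the cell rule and the depth. Those without shared barcodes, without the 3 deepest cells and at 2000 UMIs or more were chosen after seeing the data.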

Additional observations from a re-analysis of the deposited data

How the results depend on the processing

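Genes that rose and fell with Dox numbered 0 and 0 with no filter on low counts, with the C1q limit at 1000 CPM and with each cell given equal weight. They numbered 4 and 5 with DESeq2, 0 and 3 with at least 3 C1q UMIs or with at least 3 of 7 markers, and 0 and 1 without cells holding 5 more neutrophil genes. They numbered 17 and 22 with epithelial UMIs under 10 per 10000, 7 and 14 with the strict cell filter (500 genes, 10% mitochondrial) and 0 and 4 in macrophages of at least 2000 UMIs. Thinning to 1000 UMIs left 228 genes tested, of which 24 rose and 35 fell, and all 12 tested genes of the original 81 were called. edgeR's prior degrees of freedom fell to between 1.93 and 34.6 under the cell rules that removed calls; why they did was not tested. Without the 3 deepest macrophages of each library 53 rose and 48 fell, and these 101 hold 46 of the original 81 (58 of the 73 still tested had an unadjusted p at or below 0.05). Every tested gene of the 81 kept its sign in each alternative except Ccr2, whose log2 fold change was 6.67 in that same setting. Cxcl3 was called in 12 of 15 alternatives with a test, Cxcl13 in 11 of 15, and H2-Aa, Cd74, H2-Ab1, F13a1 and Fn1 in 9 of 16. The median of the class II list (19 settings) stayed between 4.11 and 7.08, and that of the chemokines (18 settings) between -2.74 and -1.41. The difference of the Dox response had 35 higher and 2 lower genes with DESeq2 and 156 and 12 with the legacy quasi-likelihood fit. Leaving out either Dox library left 0 to 0 genes higher and 0 to 1 lower in macrophages against other cells, and 1 library per group, with no test, for Dox against control. The share in Dox library 1 was 5.03% without the cells holding 5 more neutrophil genes. No paired analysis was possible because there is 1 control library, so that the groups share fewer than 2 replicate numbers. With 15 control macrophages and 12.6 CPM per control UMI, a gene under 37.7 CPM in the control lies below the floor of 3 UMIs.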
